A study of Drosophila melanogaster with 3 samples.

Results

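The pair-rule genes are the 9 transcription factor genes eve, ftz, hry (hairy), run, odd, prd, slp1, slp2 and opa, taken by name from the 13945 protein-coding genes on the 6 chromosome arms analysed. For each gene, every thresholded peak record was collected whose summit lay in a window from 10 kb before the gene's start to 10 kb past its end. The records came from chromatin immunoprecipitation followed by sequencing (ChIP-seq) of whole Drosophila melanogaster embryos, collected over 0 to 24 h of development, with an antibody against GFP. All embryos were from a transgenic strain that expresses CG11695, a zinc finger protein, as a fusion with eGFP, and they formed 1 group of 3 biological replicates. The tagged protein came from an inserted transgene, and neither an input nor an untagged strain is analysed here. Sites that would appear in any precipitation therefore cannot be told apart from sites of CG11695.

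Pair-rule genes act when the fly embryo changes from broad domains of gap gene expression to the repeated pattern of body segments. Most are transcribed in a series of stripes, though not opa. The proteins of the pair-rule genes activate and repress one another and then set the stripes of the segment polarity genes. Their stripes are driven by separate enhancers spread over the DNA around each gene, and most of these genes are used again later in other tissues, among them the nervous system. The embryos here span all of these stages and all cell types, so binding in fewer cells and less binding per cell cannot be told apart.

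The sequences that carry the results are those at the summits of 6 sites beside slp1, slp2, hry and opa, whose values follow. They were read from the RefSeq copy of the release 6 genome (dm6), 100 bases to either side of the summit, and the hry promoter stops short of the transcript. Capitals mark matches on either strand to short motifs. These were the homeodomain core TAATTA, the heptamer of the activator Zelda, which is CAGGTAG, and the TATA box, searched for as TATAAA. A further motif was AAATAT, the leading short sequence of an earlier examination of these data, and the last was TCTCAGTG, which was picked once the sequences had been seen. A match describes the letters and is no evidence of a bound factor.
slp2, 4349 bp upstream, chr2L:3832391-3832591, plus strand: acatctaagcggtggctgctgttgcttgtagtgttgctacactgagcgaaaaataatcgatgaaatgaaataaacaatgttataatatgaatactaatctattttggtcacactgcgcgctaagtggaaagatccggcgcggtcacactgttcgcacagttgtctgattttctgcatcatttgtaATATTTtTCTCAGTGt
slp1, 2206 bp downstream of the start, chr2L:3827781-3827981, plus strand: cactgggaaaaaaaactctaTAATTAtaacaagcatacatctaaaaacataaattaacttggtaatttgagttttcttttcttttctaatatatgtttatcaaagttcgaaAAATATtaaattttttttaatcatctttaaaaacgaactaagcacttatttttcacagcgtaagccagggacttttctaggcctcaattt
hry, 7403 bp upstream, chr3L:8668256-8668456, plus strand: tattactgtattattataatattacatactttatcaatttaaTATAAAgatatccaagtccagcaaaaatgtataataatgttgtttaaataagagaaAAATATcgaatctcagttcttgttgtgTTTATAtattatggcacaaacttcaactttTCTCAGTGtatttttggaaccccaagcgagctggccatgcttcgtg
hry, 83 bp upstream, chr3L:8675576-8675758, plus strand: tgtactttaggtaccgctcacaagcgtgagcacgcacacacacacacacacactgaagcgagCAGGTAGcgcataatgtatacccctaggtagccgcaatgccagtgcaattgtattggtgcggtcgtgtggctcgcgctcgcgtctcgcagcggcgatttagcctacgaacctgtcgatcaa
hry, 7012 bp downstream of the start, chr3L:8682671-8682871, plus strand: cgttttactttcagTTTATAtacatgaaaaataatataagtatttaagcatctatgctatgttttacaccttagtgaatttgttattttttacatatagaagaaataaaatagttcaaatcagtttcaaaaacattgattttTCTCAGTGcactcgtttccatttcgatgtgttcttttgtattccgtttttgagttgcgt
opa, 12685 bp downstream of the start, chr3R:4865398-4865598, plus strand: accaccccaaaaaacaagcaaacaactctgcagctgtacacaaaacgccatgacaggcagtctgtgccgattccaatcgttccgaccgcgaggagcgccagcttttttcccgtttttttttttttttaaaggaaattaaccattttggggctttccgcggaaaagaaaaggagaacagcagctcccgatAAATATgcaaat

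The authors gave 4 series-level lists and 1 list per replicate. Each holds peaks past a global irreproducible discovery rate (IDR) of 0.01, a measure of how well the ranks of peaks repeat between a pair of peak sets. The authors' conservative list, taken as the main list, held 4770 records, the other pair lists held 4763 and 4231, and the list from pooled libraries held 5976. By matching of peak records the conservative list compared replicates 1 and 3, and the others compared 1 with 2 and 2 with 3. The peaks and signals of all 4 came from pooled libraries. The own lists of replicates 1, 2 and 3 held 3404, 2774 and 2716 records, a mean of 2965 ± 382 (SD, n = 3). The lists give no read totals, so library depth is unknown and counting error cannot be stated. The signal of a record is the authors' own value on a scale that is not stated, and was ranked only within a list. Own signals of the replicates are printed side by side, but their scale may differ between libraries. The highest signal was 993, 699 and 593 in the own lists of replicates 1, 2 and 3. Means and SDs of own signals therefore describe only the printed values. Where a replicate is called the lowest at a site, its position in its ranked list was the lowest too.

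CG11695-eGFP records stood near 4 of the 9 pair-rule genes, hry, slp1, slp2 and opa, and near none of eve, ftz, run, odd and prd. The same 4 genes had a record in each of the 4 series-level lists and in each of the 3 own lists. Distinct records at these genes numbered 7 in the conservative list, 6 and 5 in the pair lists of replicates 1 with 2 and 2 with 3, and 7 in the pooled list. The own lists of replicates 1, 2 and 3 held 7, 3 and 5, a mean of 5 ± 2 (SD, n = 3). In the own lists of replicates 1 and 3, 1 record each lay 200 bp beside a stronger record of hry, and with such records merged the counts were 6, 3 and 4.

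A record in a window of this size was common. In the conservative list 60.1% of all protein-coding genes had 1 or more, and 56.4% of the 10463 genes of 5 kb or less, the size of most pair-rule genes. The background was 59.8% and 56.1% in the pair lists of replicates 1 with 2 and 2 with 3, 66.4% in the pooled list, and 51.3%, 45.7% and 45.4% in the own lists of replicates 1, 2 and 3. The 4 of 9 pair-rule genes with a record were therefore no more than the usual share. The windows were of ordinary length, with a median of 22533 bp over the pair-rule genes and 22166 bp over all genes. The median number of records per window was 1 over all genes, and 5 of the 9 pair-rule genes had 0. Windows with 3 or more records, as those of hry, slp1 and slp2, made up 17.9% of all genes.

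**Figure D1:**
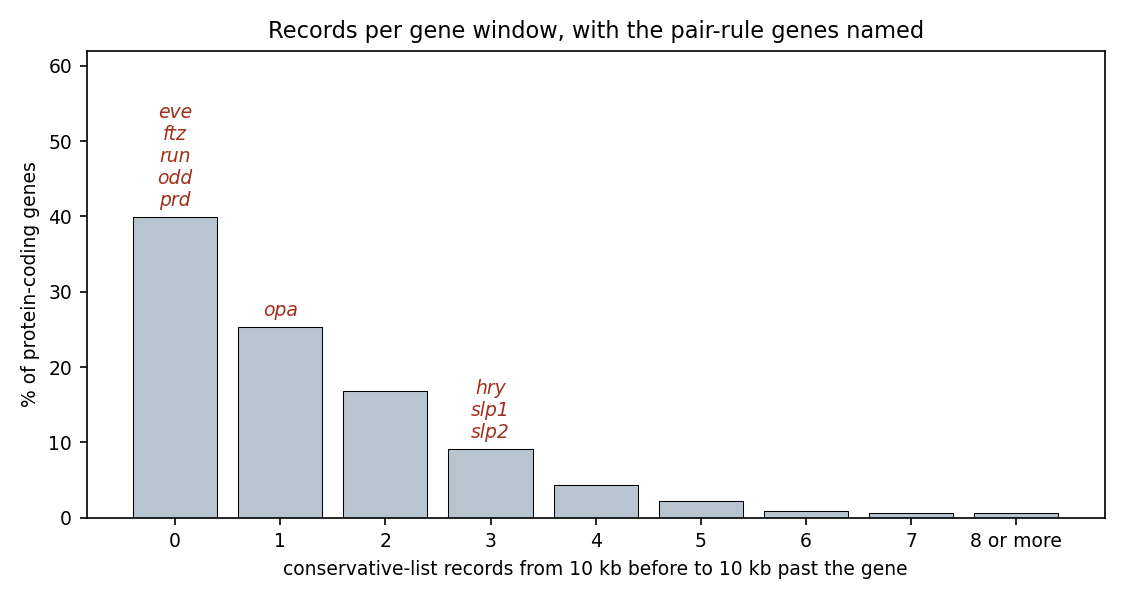
Share of all 13945 protein-coding genes (vertical axis, %) by the number of conservative-list records in their window (horizontal axis), with the pair-rule genes named above the bar they belong to. Of the pair-rule genes, 5 stand in the bar at 0, opa at 1, and hry, slp1 and slp2 at 3.

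The strongest record of the pair-rule genes lay between slp1 and slp2. These neighbouring genes encode closely related forkhead transcription factors, known for setting segment polarity gene stripes, and they share regulatory DNA. Both are transcribed toward higher coordinates on arm 2L, slp1 at chr2L:3825675-3827099 and slp2 at chr2L:3836840-3839185, with 9740 bp between them. Because their windows overlap, they share every record, and the same 3 summits are counted for each.

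The strong record, chr2L:3832387-3832612, has its summit at 3832491, in intergenic DNA 5392 bp past the end of slp1 and 4349 bp upstream of slp2. Its signal was 359, rank 400 of 4770 in the conservative list. Within each library it was again among the strongest: its own-list signal was 124.1 in replicate 1, 109.0 in replicate 2 and 122.5 in replicate 3. Those signals placed it at 0.648%, 0.643% and 0.424% from the top of the ranked lists of these replicates. Its position was thus alike in the 3 libraries, and their summits fell within 18 bp of each other. The −log10 global IDR was at the ceiling of 5 in each series-level list and each own list. A record placed as high stood in the windows of 1677 of the 13945 protein-coding genes in the ranked counterpart of the conservative list. The same was true of 14.7%, 13.6% and 9.30% of genes in the ranked lists of replicates 1, 2 and 3.

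A weaker record, chr2L:3827691-3828070, lay just past slp1, with its summit 782 bp beyond the gene's end and 2206 bp from its start. It had a signal of 125, rank 2264 of 4770, and stood in all 4 series-level lists. Its own-list signal was 53.5 in replicate 1, 25.9 in replicate 2 and 40.6 in replicate 3, and the own lists of replicates 1 and 3 held it. Replicate 2 was the lowest of the 3 and had it at 6.90% from the top of its ranked list, below its threshold.

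The promoter of slp2 gave the least repeated record of the pair. Its summit lay 51 bp upstream of the gene's start, with a signal of 71.9 and rank 4069 of 4770, and the conservative list alone among the 7 lists held it. Its own signals were 24.2 in replicate 1, 11.9 in replicate 2 and 31.4 in replicate 3, none of them past the threshold. The −log10 global IDR was 2.00 in the conservative comparison, against 0.348 and 0.229 in the pair comparisons that include replicate 2, and replicate 2 had the lowest signal. It was 1.94 in the pooled list, just short of the limit of 2 that an IDR of 0.01 sets. No record stood within 500 bp of the start of slp1 in any of the 7 lists.

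hry encodes a basic helix-loop-helix repressor that works with the co-repressor Groucho, and its stripes are built by a long array of upstream enhancers. It lies on arm 3L, at chr3L:8675759-8679253, and is transcribed toward higher coordinates. Over the 4 series-level lists 5 distinct sites were recorded in its window, more than at any other pair-rule gene, and only 1 of them stood in all 4. This site, chr3L:8682581-8682960, lies 7012 bp downstream of the start and 3518 bp past the gene's end, and had the highest conservative-list signal of the gene, 104, at rank 2854 of 4770. Its own signals were 52.8 in replicate 1, 31.4 in replicate 2 and 30.3 in replicate 3. None of the own lists held it, although its signal in replicate 1 was close to that of the site 7403 bp upstream, 52.7, which the own list of replicate 1 did hold. The own lists were thresholded on IDR and not on signal, and the −log10 global IDR in replicate 1 was 1.79 for the former and 2.53 for the latter.

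The other hry sites changed with the replicates compared. The sites 7403 bp and 3093 bp upstream, chr3L:8668166-8668545 and chr3L:8672476-8672855, had signals of 101 and 129 and were recorded in the list of replicates 1 with 2 and in the pooled list. At the site 3093 bp upstream the own signals were 56.7 in replicate 1, 54.4 in replicate 2 and 19.7 in replicate 3, and the own lists of replicates 1 and 2 held it. At the site 7403 bp upstream they were 52.7, 28.4 and 20.3, and the own list of replicate 1 alone held it. Replicate 3 was the lowest at both sites. They missed the conservative list, which compares replicates 1 and 3, with −log10 global IDR values of 1.93 and 1.82.

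At the promoter of hry replicate 2, not replicate 3, was the lowest. Its record, chr3L:8675486-8675865, had its summit 83 bp upstream of the start, a signal of 80.9 and rank 3739 of 4770, and stood in the conservative and pooled lists. The own signals were 43.8 in replicate 1, 2.98 in replicate 2 and 42.7 in replicate 3. Replicates 1 and 3 held it in their own lists, at 3.64% and 2.88% from the top of their ranked lists. Their summits differed, 37 bp downstream of the start in replicate 1 and 87 bp upstream in replicate 3. Replicate 2 had it at 94.7% from the top of its ranked list, near the bottom. A pair list takes sites that repeat in its pair, so a lower value in the replicate left out can follow from that choice. This holds here, at the upstream sites and at the slp2 promoter. The mean own signal at the hry promoter, 29.8 ± 23.3 (SD, n = 3), describes none of the 3 libraries. A further record 451 bp upstream of this summit, 534 bp from the start, had a signal of 67.4 and rank 4175, and stood in the conservative list and that of replicates 2 with 3. Its own signals were 24.9, 25.9 and 28.0 in replicates 1, 2 and 3, and none was past the threshold. They stood at 9.41%, 6.90% and 6.19% from the top of the ranked lists.

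opa encodes a zinc finger protein of the Zic family and is known for timing the later phase of pair-rule patterning. At 17167 bp it is the longest pair-rule gene, at chr3R:4852813-4869979, transcribed toward higher coordinates. It had 1 record, chr3R:4865308-4865687, in an intron 12685 bp downstream of the start, with a signal of 132 and rank 2100 of 4770. This record stood in all 4 series-level lists and all 3 own lists, as did only the strong slp1 and slp2 record among the pair-rule sites. Its own signals were 34.3 in replicate 1, 46.6 in replicate 2 and 43.1 in replicate 3, a mean of 41.3 ± 6.30 (SD, n = 3). In the own lists it stood low, at rank 3152 of 3404 in replicate 1, 1884 of 2774 in replicate 2 and 1870 of 2716 in replicate 3. No record lay at the opa promoter.

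**Figure D2:**
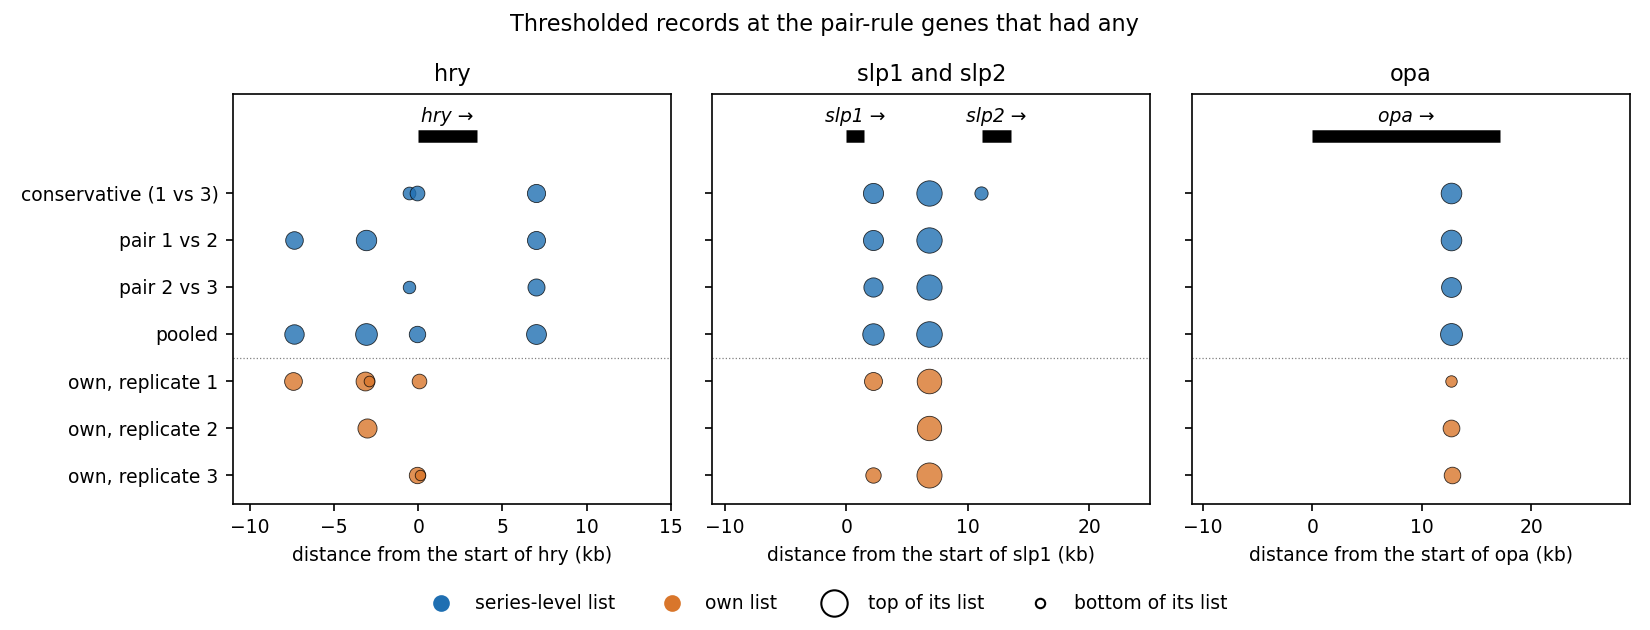
Records of each thresholded list (rows) by distance from the start of hry, slp1 or opa in kb (horizontal axis), with genes as black bars and arrows giving the direction of transcription. A point is a record, blue for series-level and orange for own lists, and larger points stand higher in their list. The strong slp1 and slp2 site and the opa site form columns through all 7 rows, and the hry sites do not.

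**Figure D3:**
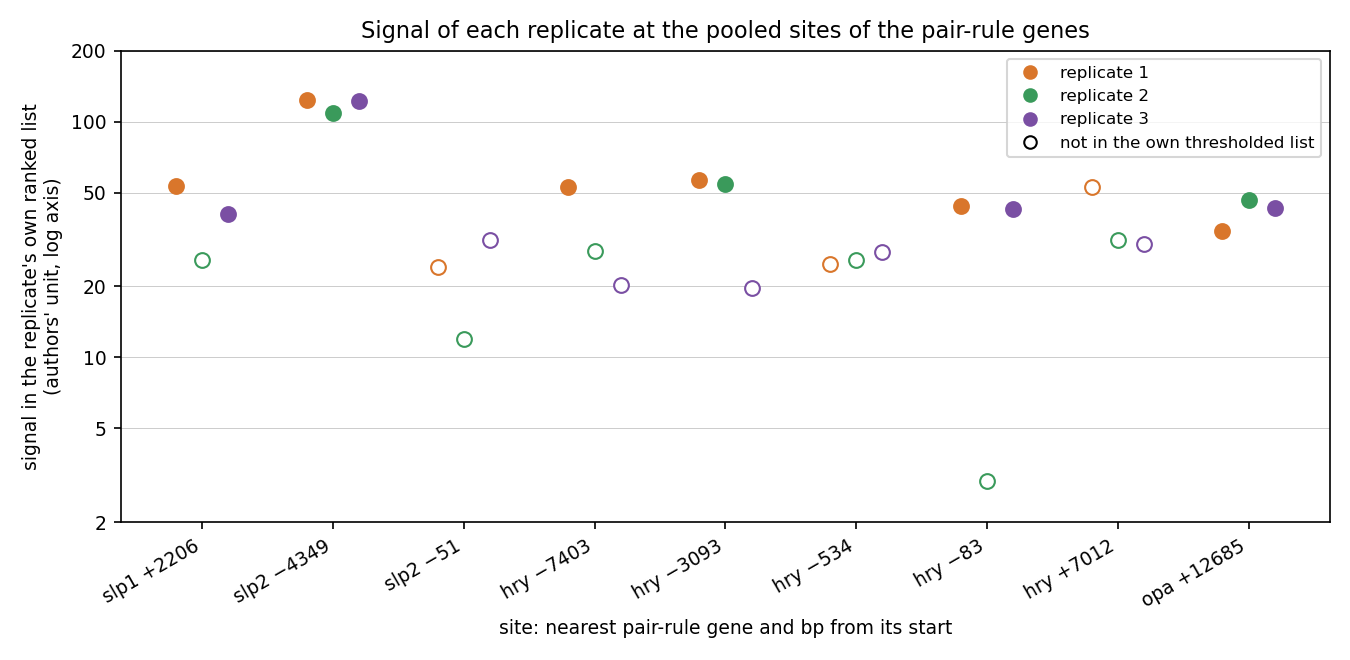
Signal of the strongest overlapping record with a summit within 250 bp, in the ranked list of each replicate (vertical log axis, authors' unit). The 9 sites recorded at pair-rule genes are shown, with filled points where the own thresholded list held the site. The site 4349 bp upstream of slp2 stands highest in all 3 replicates, from 109 to 124. The hry promoter site has replicate 2 at 2.98, far below replicates 1 and 3.

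Sites repeated over the own lists to different degrees. Of the 7 conservative records at pair-rule genes, 2 overlapped a peak in all 3 own lists, 2 in 2 of them and 3 in none. Over all 4770 conservative records the shares were 36.8% with all 3, 18.2% with 2, 21.4% with 1 and 23.6% with none. With 7 records the pair-rule counts cannot be set apart from these shares, and no test was made.

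The 5 pair-rule genes without a thresholded record encode the homeodomain proteins Eve and Ftz, the Runt-domain protein Run, the zinc finger protein Odd, and Prd, which carries both a paired domain and a homeodomain. They lie at chr2R:9979319-9980795 (eve), chr3R:6864324-6866244 (ftz), chrX:20690670-20697321 (run), chr2L:3604224-3606756 (odd) and chr2L:12082995-12085827 (prd), the last pair on the minus strand and the rest on the plus strand. For eve, run, odd and prd, weak records stood in the ranked lists, which hold peaks before the threshold. In the ranked counterpart of the conservative list, which holds 101916 records, the eve window had 26, run 20, odd 27 and prd 31, against a median of 26 over all genes. The strongest stood at 8.89% from the top for eve, 9.07% for run, 11.9% for odd and 8.88% for prd. A record as high was found in the windows of 76.8% to 82.3% of all protein-coding genes, so these windows were in the lower part of the range. For comparison, the strongest ranked record of hry stood at 2.20%, that of opa at 2.14% and that of slp1 and slp2 at 0.406%. Records as high as those of hry and opa were common, in the windows of 42.0% and 41.2% of all protein-coding genes. In the ranked lists of replicates 1, 2 and 3 the shares for hry were 38.7%, 33.3% and 39.6%. For opa they were 59.1%, 38.9% and 39.3%.

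The strongest ranked record of each of these genes was then read in each replicate's own ranked list. The strongest eve record stood at 8.46%, 5.52% and 8.55% from the top in replicates 1, 2 and 3. For run the positions were 13.0%, 11.7% and 14.5%, for odd 10.7%, 8.34% and 13.5%, and for prd 7.81%, 8.33% and 12.7%. These positions belong to different records in different replicates. The eve record of replicate 2 lay 9134 bp upstream of the gene, while those of replicates 1 and 3 lay 10367 bp and 9127 bp downstream of its start. For run the records of replicates 1 and 3 lay 2756 bp and 1088 bp upstream and that of replicate 2 lay 12453 bp downstream. For prd that of replicate 1 lay 7272 bp upstream and those of replicates 2 and 3 lay 9824 bp and 4559 bp downstream. For odd, replicates 1 and 2 had records near each other, at 8052 bp and 8210 bp downstream, and replicate 3 had its record close to the start.

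ftz differed from the other pair-rule genes even in the ranked lists. It lies within the Antennapedia complex of homeotic genes. Its window held 0 ranked records in the counterpart of the conservative list, 1 of 639 such windows among the 13945 genes (4.58%). In the ranked lists of replicates 1, 2 and 3 it held 0, 5 and 1. The strongest stood at 16.7% from the top in replicate 2 and 33.0% in replicate 3. Around the start of ftz no record fell within a stretch of 45938 bp in the counterpart of the conservative list, where the median distance between neighbouring records was 631 bp. Of 101910 such stretches, 168 were as long (0.165%). That share counts each stretch once, whereas a given position lies in a long stretch more often than that. It is therefore no measure of how rare the ftz window is among genes, for which the 4.58% above stands. In the own ranked lists the stretch was 41466 bp in replicate 1, 11764 bp in replicate 2 and 40711 bp in replicate 3, so replicate 2 was the exception. No measure of mappability was used here, so whether reads can be placed in this stretch was not tested.

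**Figure D4:**
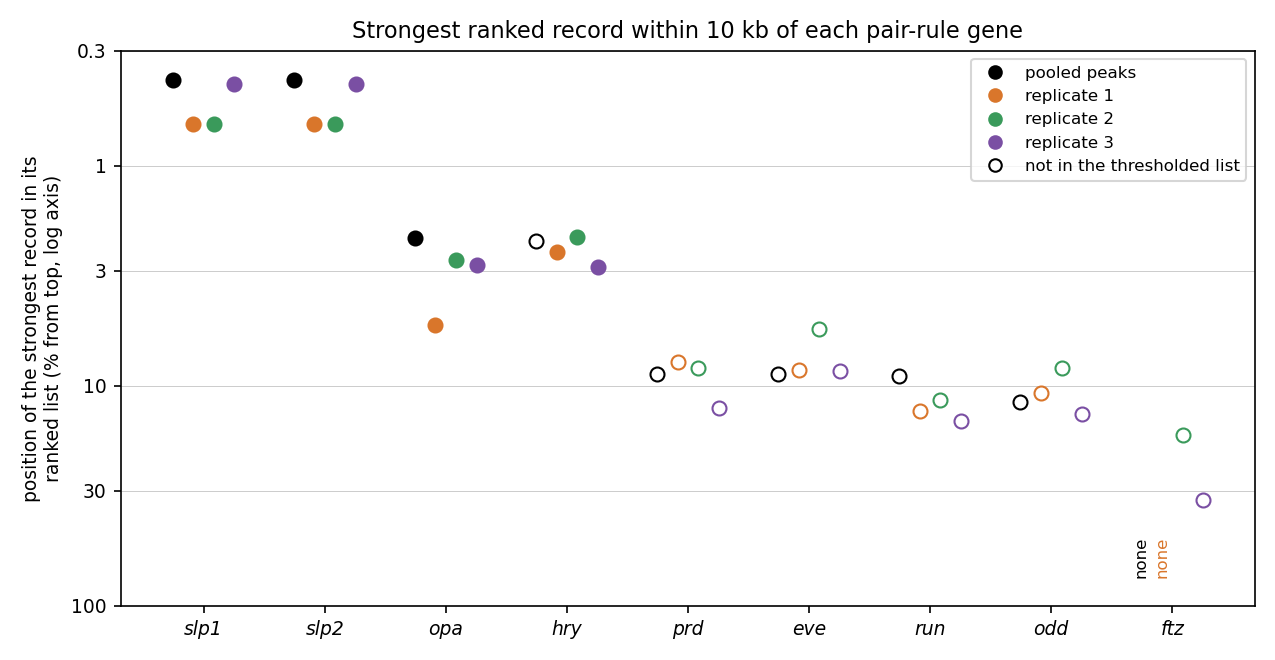
Position of the strongest ranked record in the window of each pair-rule gene, in % from the top of its ranked list (vertical log axis, strongest at the top), for the pooled peaks of the conservative comparison and for each replicate. Filled points are in the thresholded list. The hry point of the pooled peaks is open because that record, 3093 bp upstream, is not in the conservative list. Ranks run from 0.406% for slp1 and slp2 to 33.0% for ftz in replicate 3, with no record for ftz in the pooled peaks and in replicate 1.

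Beyond the windows, the nearest conservative record to each of these genes lay nearer to the start of another gene. For eve it lay 19402 bp before the gene, 161 bp upstream of Pal1, and was strong, with a signal of 854 and rank 56 of 4770. For ftz it lay 15612 bp before the gene, 207 bp upstream of the homeotic gene Scr, with a signal of 68.3. For odd it lay 15706 bp past the gene, near lncRNA:TS2, with a signal of 220, for prd 17647 bp before the gene, near Patsas, with 181, and for run 35491 bp before the gene, near Cyp6v1, with 106. In the conservative list a window of 20 kb on each side would therefore count 8 of 9 pair-rule genes, all but run. By that window 75.9% of all protein-coding genes have a record. The ftz record stood in the conservative and pooled lists only. In the lists of replicates 1 with 2 and 2 with 3 the nearest lay 37170 bp past ftz. Both these lists and the pooled list held a record 10728 bp before prd, near Mt2, with a signal of 81.4, just outside the 10 kb window. At all 9 sites within the 10 kb windows the nearest annotated start belonged to a pair-rule gene. The window rule favours this, since it takes sites by their nearness to such a gene.

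Records at pair-rule genes lay both at promoters and away from them. Of the 7 conservative records, 2 lay within 500 bp of a start (hry and slp2), 1 in an intron (opa) and 4 in intergenic DNA, 1 of which, at hry, lay 34 bp outside the promoter limit. Among all 4770 records 45.1% were at promoters, 39.2% in introns and 12.6% intergenic. By gene, 2 of 9 pair-rule genes had a promoter record, against 16.2% of all protein-coding genes. With 7 records and 9 genes, neither promoter count can be set apart from its share. The intergenic records, 4 of 7, were a larger share than the 12.6% over all records, and this difference was not tested.

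The sites also differed in base composition. In the 201 bases around the summit, the promoter sites were rich in G and C, at 55.7% for hry and 49.3% for slp2, as was the hry record 534 bp upstream, at 53.7%. The median over all conservative records was 34.8%. The sites 7403 bp and 3093 bp upstream of hry and 7012 bp downstream were low, at 28.9%, 28.4% and 26.9%, and the site past slp1 was the lowest at 25.9%. The strong slp2 site and the opa site lay between, at 39.3% and 44.8%.

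Of the motifs searched for on both strands within 100 bp of the summits, most occurred at 1 or none of the 7 conservative records. CAGGTAG, the heptamer bound by the early activator Zelda, occurred at the hry promoter, 38 bp from the summit, and at 0.797% of all 4770 records. TAATTA occurred at the site past slp1, 80 bp from the summit, and at 17.8% of all records. GAGAG, the motif of the GAGA factor, occurred at the slp2 promoter and at 24.1% of all records, and TATAAA at the site downstream of hry and at 36.1%. AAATAT was present at 3 of the 7 and at 50.5% of all records. TATCGATA (1.61% of all records), AACCACA, bound by Runt-domain proteins (2.47%), and CACGTG, an E-box of the class bound by Hairy (1.87%), were in none of the 7 windows.

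The 8 bases TCTCAGTG were seen in the printed sequences of the strong slp2 site, 92 bp from its summit, and of the hry sites 7403 bp upstream and 7012 bp downstream, 55 bp and 42 bp from theirs. Since they were picked from these sequences, their presence at 3 of the 9 sites is no finding. Over all 4770 conservative records 3.52% held them, against 0.535% of 9540 windows of the same length centred 1000 bp to either side. The share was 3.78% among the 1192 records with the highest signal and 2.52% among the 1192 with the lowest.

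Other genes of the segmentation cascade were counted by the same window rule in the conservative list. Of the gap genes, which act before the pair-rule genes, 4 of 10 had a record, the strongest being btd with a signal of 511, oc with 140 and knrl with 100. Of the segment polarity genes, which act after them, 10 of 15 did, led by nkd with 452, dsh with 419 and fz with 319. Of the maternal and terminal genes 6 of 8 did, led by cad with 267, osk with 251 and pum with 249. Gene length differs between the groups, with medians of 2533 bp for pair-rule, 3211 bp for gap, 4212.5 bp for maternal and terminal and 11949 bp for segment polarity genes, and a longer gene has a wider window. Over all protein-coding genes the share with a record was 60.1%, and these counts over short lists carry no test.

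Of the partners and paralogs of the pair-rule factors, 6 of 7 had a record in the conservative list, against 60.1% of all protein-coding genes. Their median length was 9177 bp, and a longer gene has a wider window. The own lists of replicates 1, 2 and 3 each held records for 4 of the 7, against 51.3%, 45.7% and 45.4% of all genes. In the conservative list the gene of the co-repressor Groucho, gro, had a signal of 492 at rank 209. There ftz-f1, whose product is the cofactor of Ftz, had 231, and sob, a paralog of odd beside it on arm 2L, had 220. The sob record is the one nearest to odd given above. Both early activators had records in the conservative list. Trl, the gene of the GAGA factor, had 1432 at rank 8, and zld had 88.3 at rank 3448. Each own list held records of Trl, and none held a record of zld.

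The pattern of slp1 and slp2 over the lists was shared by genes elsewhere. Taking for each of 13891 genes the percentile of its strongest record in each of the 7 thresholded lists, the genes closest to slp1 were PGAP1, Tpr2 and CG15676, at Euclidean distances of 2.32, 2.59 and 2.93 percentile points. In the conservative list slp1 stood at the percentile 91.6, PGAP1 at 90.7, Tpr2 at 91.1 and CG15676 at 91.3. This measure compares only the height of records in 7 lists from the same 3 libraries.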

How the data were processed

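The data were peak lists on dm6, per the file headers, from 3 ChIP-seq libraries of sonicated chromatin with fragments of 200 to 800 bp, per the labels. The sources used here name no aligner and no peak caller. Each deposited record has a score scaled from the global IDR, at least 830 in thresholded lists, a signal of unstated scale, and, in the authors' ranked lists, −log10 of the global IDR as deposited. Labels do not say which replicates each pair list compared. Identical peak ends matched its compared sets to the replicates' ranked lists, with shares of 63.6% to 74.0%.

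Records on the 6 arms were kept once per summit, with 1-based coordinates. Genes came from Ensembl release 115 (BDGP 6.54). A replicate's value at a site is its strongest ranked record that overlaps by 1 bp or more and has its summit within 250 bp of the pooled summit. Motif windows were 201 bp. Scripts ran in Python 3.11.15 with numpy 2.4.6 and matplotlib 3.10.9, and the window counts were checked on simulated data.

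The members, gene lists and motifs were chosen with earlier results of these data known. All 9 genes are named, with the gene nearest to each record, up to 3 genes per other list by highest signal, and the 3 genes most like slp1. The genes nearest outside the windows were added after values were seen. The 3 replicates are separate biological samples of 1 strain per the labels, and as they form 1 group no test between conditions was made. Windows of 5 and 20 kb, other lists, a stricter IDR, merged records, reciprocal overlap of 50% and leaving out each replicate were the alternatives.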

Additional observations from a re-analysis of the deposited data

How the results depend on the processing

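The 8 results were computed under 35 alternative values in all, of which 29 counted as unchanged. A count or mean counted as unchanged within 1.5 times the main value, and a strongest signal only if equal to it. With 20 kb on each side the records at pair-rule genes rose from 7 to 16 and the genes with a record from 4 to 8, by the wider window alone. At a global IDR of 0.001 or less, 4 records remained, at hry, slp1 and slp2, and opa had none. Leaving replicates 3 or 1 out of the IDR comparison gave 6 and 5 records at the same 4 genes. Of these, 4 and 5 were also in the conservative list. The pooled list gave 7 records, of which 5 were in the conservative list. Such counts were called unchanged by number alone, and part of the records differed. Of the 7 conservative records, 2 to 4 overlapped the own lists of the remaining replicates when each was left out. The 4 were found without replicate 2, which the conservative comparison leaves out as well. The mean number of own-list records was between 4 and 6. The strongest hry signal was 104 in the conservative list, 104 to 129 when a replicate was left out of the comparison, and 129 in the pooled list, where another site leads. The strongest signals of slp1, slp2 and opa were the same in all 4 series-level lists. Since these lists hold the same pooled signals, this shows only that each list held the same records. The slp1 and slp2 values belong to a single shared record. No paired analysis was possible because there is 1 group. With 3 libraries, 1 group, no control analysed and unknown depth, a missing record means only that none passed the threshold in these lists.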
